A study of Homo sapiens with 12 samples.

Results

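The desmosome genes described here are *DSG2*, *DSG3*, *DSC2*, *DSC3*, *DSP*, *JUP*, *PKP1*, *PKP2*, *PKP3*, and *PERP*, chosen by their symbols among the 58735 genes of a table of raw RNA sequencing counts. All 10 were found, each in a single row, and all 10 passed the filter on low counts in every comparison. The cells were TIGK, human keratinocytes from the gingiva that telomerase keeps dividing, and all belong to 1 line. They were all kept at 48 mM glucose in a base medium made without Arg. The 4 groups were control cells with no added Arg at 24 h, cells given 500 μM Arg (L-arginine) for 24 h, control cells at 48 h, and cells given 500 μM Arg for 48 h. Each group had 3 libraries, replicates A, B, and C, which came from wells of culture plates of this line.

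Desmosomes are the junctions that rivet the membranes of neighboring epithelial cells together and anchor their keratin filaments. In each junction, the desmosomal cadherins, which are the desmogleins (DSG) and desmocollins (DSC), bind across the gap between cells. Inside the cell, the armadillo proteins plakoglobin (*JUP*) and plakophilins (*PKP*) link the cadherin tails to desmoplakin (*DSP*), which holds the keratins. PERP is a tetraspan membrane protein of the same junctions. In stratified epithelia such as the gingiva, the cadherins and plakophilins used change as keratinocytes leave the basal layer. *DSG2* and *DSC2* are the broadly expressed cadherins of simple and stratified epithelia, while *DSG3* and *DSC3* are typical of stratified epithelia.

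The libraries held between 16542243 and 19040964 counts, and the 10 genes took between 0.325% and 0.674% of them. The chi-square per degree of freedom between replicates lay between 3.66 and 23.9, so no library was counted as a repeat of another, and control replicate B at 48 h was furthest from its replicates. Its share of mitochondrially encoded counts was 1.55%, where control replicates A and C at 48 h had 0.906% and 0.707%. Arg replicates A, B, and C at 48 h had 1.14%, 1.31%, and 1.16%, also above control replicates A and C. All 9 keratinocyte markers were present, with summed levels between 34900 and 46700 CPM (normalized counts, scaled to the same library total). The summed level of the 6 fibroblast markers was between 30.2 and 54.4 CPM at 24 h and between 72.7 and 103 CPM at 48 h. *DCN* and *COL1A1* made up most of it, while *COL1A2* had at most 0.058 CPM in any library and *COL3A1* at most 0.21 CPM. The summed melanocyte markers reached at most 3.06 CPM (*TYR* was at 0), the endothelial markers 2.13 CPM, and the leukocyte markers 0.45 CPM. Because nothing in the labels says that the replicates came from separate cultures, p-values measure only the spread between these libraries, which may be technical.

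The upstream sequences of the 4 genes with the largest differences between 24 and 48 h are shown because the data bear on their transcripts together. They were taken from RefSeq (GRCh38.p14), where 8 of the 10 genes had a window. Each runs 5′ to 3′ on the strand of its gene and stops before the first base of the gene in the deposited table or of the RefSeq transcript, whichever comes first. Capitals mark matches on either strand to any of 5 short motifs. The first is the GC box, written GGGCGG. The next is the E-box, whose letters are CANNTG. The AP-1 motif searched was TGANTCA. The letters of the TATA box were TATAAA. The core of a Grainyhead site was sought as AACCGG.
DSC2: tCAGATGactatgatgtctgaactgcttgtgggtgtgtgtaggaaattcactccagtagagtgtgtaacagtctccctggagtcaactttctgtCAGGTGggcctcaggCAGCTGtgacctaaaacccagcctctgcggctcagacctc
DSG3: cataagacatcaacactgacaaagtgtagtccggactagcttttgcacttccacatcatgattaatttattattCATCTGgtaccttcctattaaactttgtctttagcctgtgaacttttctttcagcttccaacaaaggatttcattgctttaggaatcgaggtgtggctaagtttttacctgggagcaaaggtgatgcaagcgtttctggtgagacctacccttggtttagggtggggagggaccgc
PKP1: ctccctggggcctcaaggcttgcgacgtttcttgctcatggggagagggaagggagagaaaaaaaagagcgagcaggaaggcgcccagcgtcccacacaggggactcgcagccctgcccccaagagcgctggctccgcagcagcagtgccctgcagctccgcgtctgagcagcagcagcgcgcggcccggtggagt
DSP: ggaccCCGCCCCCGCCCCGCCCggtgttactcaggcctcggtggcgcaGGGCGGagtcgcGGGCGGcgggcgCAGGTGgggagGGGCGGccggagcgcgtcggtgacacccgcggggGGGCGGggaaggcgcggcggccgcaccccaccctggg
The *DSC2* stretch is chr18:31102523-31102671 on the minus strand, and the *DSG3* stretch is chr18:31447491-31447740 on the plus strand. The *PKP1* stretch is chr1:201283256-201283451 and the *DSP* stretch is chr6:7541421-7541574, both on the plus strand. The *DSP* stretch held 7 GC boxes, some of which overlap, and 1 E-box. The *DSC2* stretch held 3 E-boxes, the *DSG3* stretch held 1, and the *PKP1* stretch held none of the 5 motifs. Over the full 250 bases before the RefSeq start, of which these 8 genes had 10 windows in all, 7 windows (6 genes) had a GC box and 5 windows (5 genes) had an E-box, against 42.6% and 61.8% of all 35116 promoter windows. An AP-1 match was in 1 window, that of *PERP* (6.57% of all windows), a Grainyhead core in 2 windows, of *DSC3* and *DSP* (5.99%), and a TATA box in 0 windows (10.7%). A match of letters is a description of the window and not a binding site.

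The 4 cadherin genes lie in a cluster on chromosome 18 of GRCh38 that spans 559 kb and also holds *DSC1*, *DSG1*, and *DSG4*. *DSC3* (ENSG00000134762, 30990008 to 31042815) and *DSC2* (ENSG00000134755, 31058840 to 31102522) are on the minus strand. *DSG3* (ENSG00000134757, 31447795 to 31478702) and *DSG2* (ENSG00000046604, 31498043 to 31549008) are on the plus strand. *DSP* (ENSG00000096696) lies on chromosome 6 from 7541575 to 7586717, and *PERP* (ENSG00000112378) lies on the same chromosome from 138088505 to 138107511. *JUP* (ENSG00000173801) is on chromosome 17 (41754604 to 41786931), *PKP1* (ENSG00000081277) on chromosome 1 (201283452 to 201332993), *PKP2* (ENSG00000057294) on chromosome 12 (32790745 to 32896840), and *PKP3* (ENSG00000184363) on chromosome 11 (392614 to 404908). In the deposited table, only 3 of the 10 genes overlap another gene. *DSG2-AS1* on the opposite strand of *DSG2* had 26 counts over the 12 libraries, *DSCAS* on the opposite strand of *DSC2* had 10, and *AC087588.2* and *AC087588.1* within *PKP2* had 30 and 1. Against the 79796, 20937, and 17855 counts of the 3 genes, these were at most 0.168%.

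Per exonic length, *PERP* and then *JUP* had the highest levels and *PKP2* and *DSC2* the lowest. Averaged over the 12 libraries, *PERP* had an FPKM, which is the CPM divided by the exonic length in kb, of 234.8 ± 40.6 (SD), *JUP* 168.7 ± 35.6, *DSP* 98.0 ± 31.5, *PKP1* 92.8 ± 36.9, *PKP3* 84.3 ± 8.28, *DSG2* 59.3 ± 8.33, *DSC3* 51.2 ± 16.2, *DSG3* 36.4 ± 17.1, *PKP2* 11.7 ± 2.22, and *DSC2* 7.65 ± 3.96 FPKM. These SDs contain the differences between the groups. *PERP* was above *JUP* in 12 of 12 libraries, *JUP* above *DSP* in 12, *PKP3* above *DSG2* in 12, *DSC3* above *DSG3* in 12, and *DSG3* above *PKP2* in 12. The other neighbors in this order were not separated. *DSP* was above *PKP1* in 9 of the 12 libraries, *DSG2* above *DSC3* in 9, and *PKP2* above *DSC2* in 9, with all 6 libraries at 24 h but 3 of the 6 at 48 h in the last of these pairs. *PKP1* was below *PKP3* in all 6 libraries at 24 h and above it in all 6 libraries at 48 h. With the length of the Ensembl canonical transcript, a choice made after seeing the data, *PERP* had 239.9 ± 41.5 and *JUP* 237.9 ± 50.2 FPKM, and *PERP* was above *JUP* in only 7 of the 12 libraries, so the order of these genes rests on the length used. *PKP3* then had 113.4 FPKM and *PKP2* 19.5 FPKM, *PKP3* and *PKP1* came before *DSP*, and *DSG3* was above *PKP2* in 8 of the 12 libraries. On this length, *PKP3* was above *PKP1* in all 6 libraries at 24 h and still in 2 of the 6 at 48 h. Levels of different genes are compared only on this scale per length, and levels below are in CPM unless FPKM is named.

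**Figure D1:**
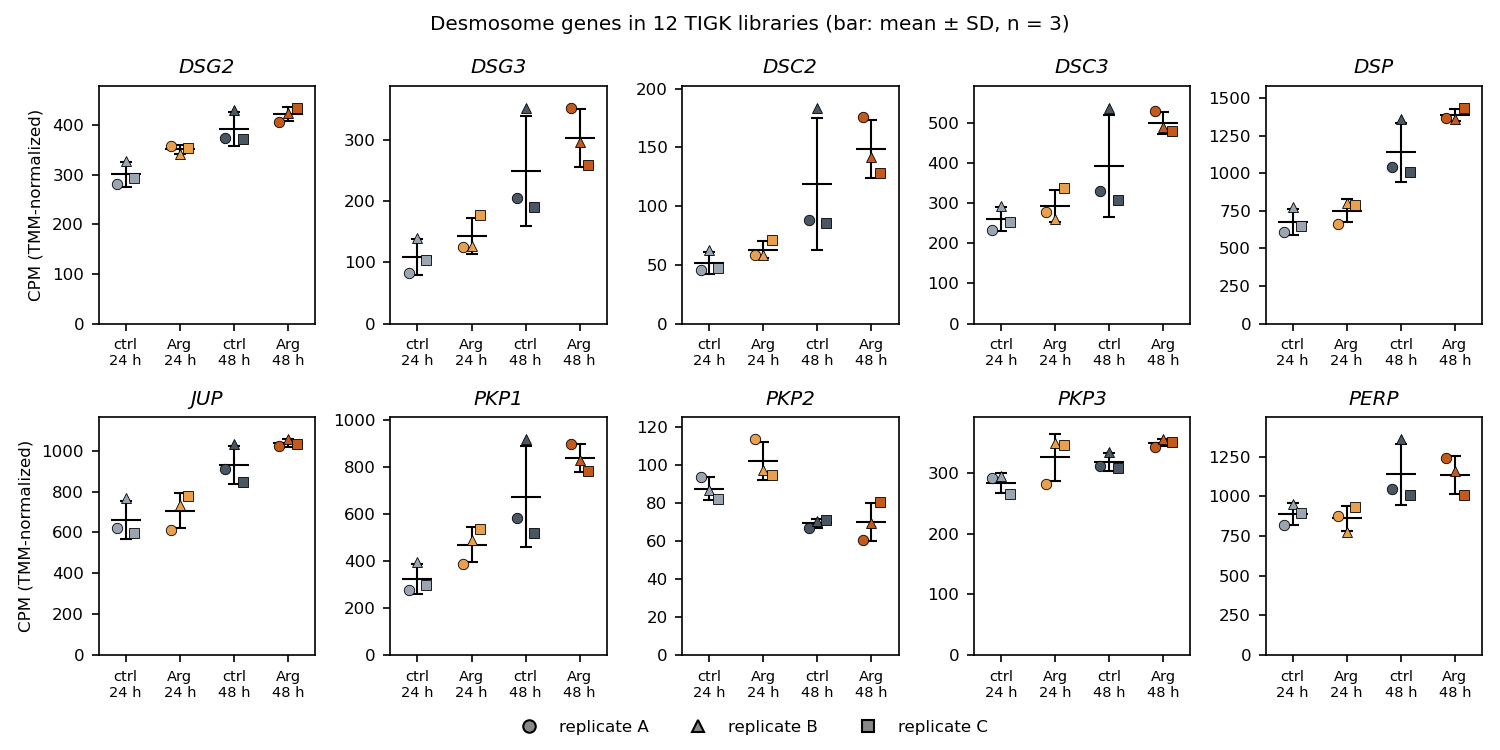
Level of each desmosome gene in CPM after TMM normalization (vertical axis, from 0, on a scale of its own in each panel) in the 12 libraries (points, shaped by replicate) of the 4 groups, with the mean and SD of 3 libraries as bars. In most panels the 48 h groups sit above the 24 h groups, *PKP2* runs the other way, and control replicate B at 48 h, the dark triangle, sits near the Arg libraries for *DSG3*, *DSC2*, *DSC3*, and *PKP1*.

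The comparison of 48 h with 24 h asks how the transcripts of the desmosome genes differed between the culture times, in control cells and in Arg-treated cells separately. In both, 8 of the 10 genes rose, *PKP2* fell, and *PKP3* did not pass the test. Over all genes tested, 19.9% were called in control cells (9.9% higher and 10% lower) and 28.3% in Arg-treated cells (14.3% higher and 14% lower) with edgeR's quasi-likelihood test at an adjusted p under 0.05. The median log2 fold change of the 10 genes was 0.55 in control cells and 0.66 in Arg-treated cells, where the medians of all genes tested were 0.013 and 0.00092. The libraries at 24 and 48 h did not overlap in 10 of the 10 genes in control cells (9 higher and 1 lower), against 39% of all genes tested, and in 9 of the 10 in Arg-treated cells (8 higher and 1 lower), against 42.2%. In sums of bulk RNA, a different number of cells of a type and a different amount of RNA per cell cannot be told apart.

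*DSC2* and *DSG3*, a desmocollin and a desmoglein, rose most. *DSC2* had 45.4, 62.5, and 47.3 CPM in control replicates A, B, and C at 24 h and 88.1, 183.9, and 85.3 CPM at 48 h. The times did not overlap, and replicate B was the highest library at each time. In Arg-treated cells, *DSC2* had 58.7, 58.8, and 71.2 CPM at 24 h and 175.9, 141.9, and 128.4 CPM at 48 h. The log2 fold change was 1.21 in control cells (standard error (SE) 0.25, adjusted p = 0.00759 from edgeR's test) and 1.24 in Arg-treated cells (SE 0.10, adjusted p = 7.28e-08). *DSG3*, the prominent desmoglein of oral epithelia, had 81.9, 139.8, and 104.1 CPM in the 24 h controls and 205.8, 353, and 190.5 CPM in the 48 h controls. With Arg, *DSG3* had 125.4, 126.2, and 177.1 CPM at 24 h and 353.6, 297.7, and 259.2 CPM at 48 h. All 3 libraries at 48 h were again above all 3 at 24 h in either medium. Its log2 fold change was 1.21 in control cells (SE 0.22, adjusted p = 0.00495, edgeR) and 1.09 in Arg-treated cells (SE 0.12, adjusted p = 1.34e-06).

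The other 2 cadherins rose less. *DSC3* had 233.7, 291.9, and 253.8 CPM in the 24 h controls and 330.5, 538.4, and 307.7 CPM in the 48 h controls. Its 24 h and 48 h values in Arg-treated cells were 279.2, 261.3, and 337.6 CPM and 530.9, 490.3, and 478.9 CPM. The 3 Arg libraries at 48 h and control replicate B lay together, and control replicates A and C lay below them, near the highest Arg library at 24 h. The log2 fold change was 0.60 in control cells (SE 0.17, adjusted p = 0.0307, edgeR) and 0.77 in Arg-treated cells (SE 0.082, adjusted p = 1.18e-06). *DSG2* had between 281.1 and 328.7 CPM in the 24 h controls, between 371.5 and 431.2 CPM in the 48 h controls, between 341.3 and 358.3 CPM with Arg at 24 h, and between 407.3 and 435.8 CPM with Arg at 48 h. Its log2 fold changes of 0.39 (SE 0.085, adjusted p = 0.0101) and 0.27 (SE 0.062, adjusted p = 0.00296, edgeR) were the smallest among the cadherins. Shares of related genes were taken from counts divided by exonic length, so they depend on the length used. Within the 2 desmogleins, the share of *DSG3* was 28.5% ± 3.83 in the 24 h controls and 40.8% ± 6.14 in the 48 h controls (SD, n = 3). The same share with Arg was 31.1% ± 4.16 at 24 h and 44.4% ± 4.68 at 48 h. Within the 2 desmocollins, *DSC3* held 89.9% ± 0.651 and 85.7% ± 1.67 in control cells, and 89.2% ± 0.371 and 85.7% ± 1.33 with Arg. In these 4 comparisons of shares the times did not overlap (exact two-sided permutation tests, p = 0.1, which is the least that groups of 3 can give, and 0.182 when adjusted over the 20 tests of shares).

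Among the armadillo proteins, the plakophilins differed from each other. *PKP1*, the plakophilin of suprabasal keratinocytes, had 275.1, 397.7, and 300 CPM in the 24 h controls and 581.8, 919.6, and 519 CPM in the 48 h controls. With Arg, *PKP1* had 386.3, 489.9, and 535.1 CPM at 24 h and 899.9, 832.5, and 782.7 CPM at 48 h. Within each medium, no library at 24 h reached a library at 48 h. The log2 fold change was 1.06 in control cells (SE 0.19, adjusted p = 0.00426, edgeR) and 0.83 in Arg-treated cells (SE 0.091, adjusted p = 1.63e-06). *PKP2*, the broadly expressed plakophilin that is also found in the heart, had 93.9, 87.1, and 82.2 CPM in the 24 h controls and 66.8, 70.5, and 71.3 CPM in the 48 h controls. With Arg, *PKP2* had 113.8, 97.7, and 95.0 CPM at 24 h and 60.6, 69.4, and 80.7 CPM at 48 h. All its libraries at 48 h were below all its libraries at 24 h. It fell, with log2 fold changes of −0.33 (SE 0.082, adjusted p = 0.0159) in control cells and −0.54 (SE 0.096, adjusted p = 0.000286, edgeR) in Arg-treated cells, and it was the only one of the 10 genes with a negative value in either medium.

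*PKP3*, a plakophilin of most epithelia, had between 265 and 294.2 CPM in the 24 h controls, between 307.5 and 334.8 CPM in the 48 h controls, between 281.3 and 349.8 CPM with Arg at 24 h, and between 343.4 and 355.8 CPM with Arg at 48 h. Its log2 fold change was 0.17 in control cells (SE 0.073, adjusted p = 0.127) and 0.10 in Arg-treated cells (SE 0.077, adjusted p = 0.336, edgeR), and the times overlapped only with Arg. Of the summed counts per exonic length of the 3 plakophilins, *PKP1* held 37.2% ± 4.33 in the 24 h controls and 52.8% ± 6.45 in the 48 h controls. Its share with Arg was 42.8% ± 2.17 at 24 h and 56.8% ± 2.34 at 48 h (SD, n = 3). *PKP3* held 53.8% ± 3.39 and 42.2% ± 5.60 in control cells and 48.8% ± 1.02 and 39.0% ± 1.64 with Arg. *PKP2* held 8.97% ± 0.938 and 4.99% ± 0.870 in control cells and 8.38% ± 1.93 and 4.21% ± 0.732 with Arg. In each of these 6 comparisons the libraries at 24 and 48 h did not overlap (exact two-sided permutation tests, p = 0.1, and 0.182 after adjustment over the 20 tests). *JUP*, plakoglobin, which adherens junctions also use, had between 595.2 and 766.8 CPM in the 24 h controls and between 848.1 and 1033 CPM in the 48 h controls. With Arg, *JUP* had between 610.4 and 776.4 CPM at 24 h and between 1023 and 1057 CPM at 48 h. It rose, by log2 fold changes of 0.49 (SE 0.10, adjusted p = 0.00774) and 0.56 (SE 0.075, adjusted p = 1.86e-05, edgeR).

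*DSP*, the plakin that ties the plaque to keratin, had 607.5, 775.3, and 650.1 CPM in the 24 h controls and 1043, 1364, and 1010 CPM in the 48 h controls. With Arg, *DSP* had 664.5, 801.7, and 786.6 CPM at 24 h and 1366, 1364, and 1437 CPM at 48 h. The 24 h and 48 h values stood well apart. The log2 fold change was 0.75 in control cells (SE 0.12, adjusted p = 0.00282, edgeR) and 0.89 in Arg-treated cells (SE 0.070, adjusted p = 3.64e-08), the latter with the smallest p of the 10 genes in any comparison. *PERP* had between 818.4 and 951.6 CPM in the 24 h controls, between 1009 and 1362 CPM in the 48 h controls, between 773.4 and 934.2 CPM with Arg at 24 h, and between 1009 and 1245 CPM with Arg at 48 h. It rose, by log2 fold changes of 0.36 (SE 0.11, adjusted p = 0.0329) and 0.40 (SE 0.080, adjusted p = 0.000811, edgeR).

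**Figure D2:**
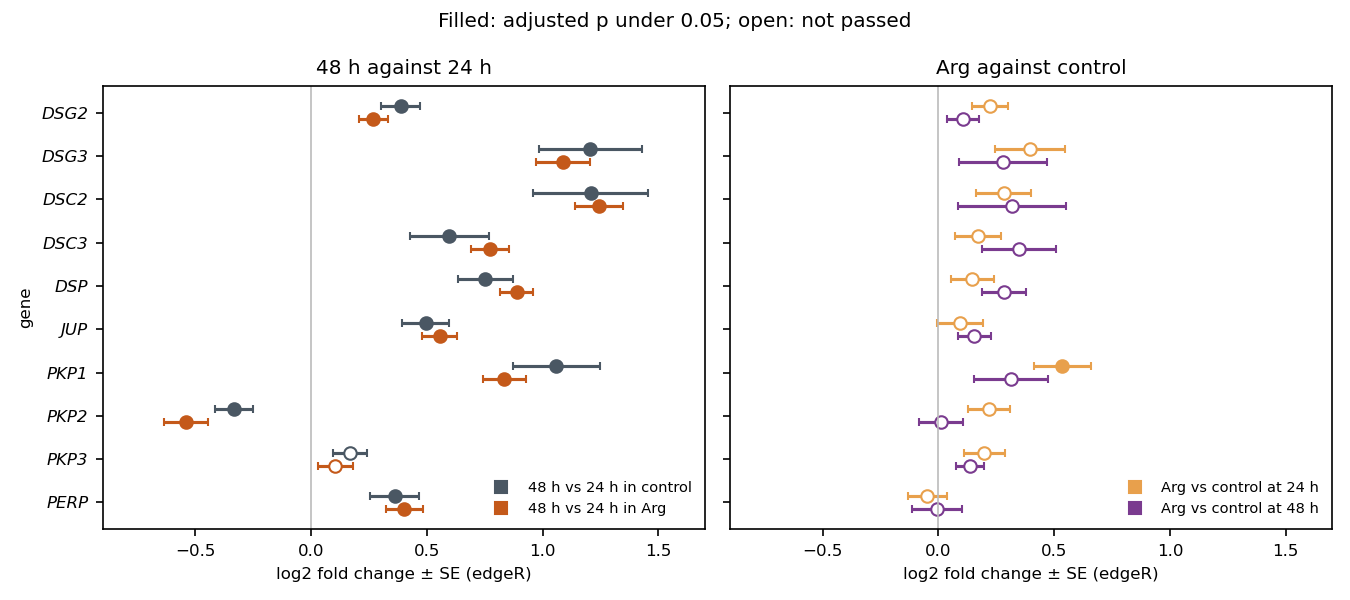
Log2 fold change with its SE (horizontal axis, edgeR) of each gene (vertical axis) for 48 h against 24 h (left, in control and Arg-treated cells) and for Arg against control (right, at 24 and 48 h). Filled points have an adjusted p under 0.05, which holds for 9 genes in each comparison of times, *PKP2* among them on the negative side, and for *PKP1* at 24 h on the right.

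All 9 calls in Arg-treated cells were also made in each of the 6 fits that left out 1 library. In control cells, the calls of *DSG3*, *DSP*, and *PKP1* were made in each such fit, while the count of called genes was 3 without control replicate A at 24 h and 5 without replicate C at 24 h. The share of all genes called was also lower in these fits, at 5.59% and 6.7%. Without replicate A, those lost had adjusted p-values between 0.0546 (*JUP*) and 0.152 (*PERP*), and without replicate C between 0.0507 (*JUP*) and 0.117 (*DSC3*). *PKP2* also lost its call without control replicate A at 48 h (adjusted p = 0.0661, edgeR). Without control replicate B at 48 h, the log2 fold change was 0.75 for *DSC2*, 0.87 for *DSG3*, 0.77 for *PKP1*, 0.30 for *DSC3*, and 0.21 for *PERP*, whose call was lost (adjusted p = 0.0660). The call of *DSC3* in control cells was also lost with DESeq2 (adjusted p = 0.129). Of the 6 fibroblast markers, 4 were tested, and *COL1A1* and *DCN* rose between the times too, by log2 fold changes of 0.97 and 1.08 in control cells (adjusted p = 0.00186 and 0.00293, edgeR) and 0.80 and 1.61 in Arg-treated cells. The other markers tested, *LUM* (1.06 and 1.11 in control and Arg-treated cells) and *PDGFRB* (−0.11 and −0.16), were not called. The part of these cells or transcripts in the differences between times was not tested.

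At 24 h, the comparison of Arg-treated with control cells asks whether added Arg altered the transcripts of these genes. Of the 10 genes, 1 was called, *PKP1*, which rose, where 6.63% of all genes tested were called and 2.79% were called higher. The log2 fold change of *PKP1* was 0.54 (SE 0.12, adjusted p = 0.014, edgeR's test), a 1.45-fold difference between means of 470.4 ± 76.3 and 324.3 ± 64.8 CPM (SD, n = 3). The groups overlapped, since control replicate B (397.7 CPM) was above Arg replicate A (386.3 CPM). *PKP1* was not called without control replicate A (adjusted p = 0.102), control replicate C (0.0628), Arg replicate B (0.0883), or Arg replicate C (0.0967), nor with DESeq2 (0.102) or all 12 libraries in the same model (0.0535). Without control replicate B, 4 genes were called, *PKP1* with *DSG2*, *DSG3*, and *DSC2*, where 10.4% of all genes tested were called in that fit. Without Arg replicate A, 2 were called, *PKP1* and *PKP3*, where the share of all genes was 7.65%. The summed keratinocyte markers were between 39500 and 46700 CPM with Arg and between 34900 and 40000 CPM in the control at this time. *DCN*, a fibroblast marker, fell by 0.70 on the log2 scale with Arg (adjusted p = 0.0294, edgeR). The other fibroblast markers tested, *COL1A1* (0.062), *LUM* (0.10), and *PDGFRB* (−0.19), were not called. The share of mitochondrially encoded counts was between 0.624% and 0.802% with Arg and between 1.2% and 1.3% in the control. The part of any of these in the values above was not tested.

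The remaining values at 24 h were mostly small and positive. In all, 9 of the 10 genes had a positive log2 fold change, with a median of 0.21 against 0.0030 over all genes tested. At an unadjusted p under 0.05, 6 genes were higher, against 10.8% of all genes, and these were *DSG2*, *DSG3*, *DSC2*, *PKP1*, *PKP2*, and *PKP3*. *DSG3* had a log2 fold change of 0.40 (SE 0.15, adjusted p = 0.130), *DSC2* 0.28 (SE 0.12, adjusted p = 0.162), *DSG2* 0.22 (SE 0.078, adjusted p = 0.096), *PKP2* 0.22 (SE 0.092, adjusted p = 0.166), and *PKP3* 0.20 (SE 0.088, adjusted p = 0.189, all from edgeR). Only for *DSG2* and *PKP2* did every Arg library exceed every control library, as was the case for 12.9% of all genes tested. *PKP2*, which fell between 24 and 48 h, was thus among the genes with a positive value here. The values were 0.17 for *DSC3*, 0.15 for *DSP*, 0.095 for *JUP*, and −0.048 for *PERP*, with adjusted p-values between 0.322 and 0.782. The share of *PKP3* among the plakophilins did not overlap between the media and was lower with Arg, at 48.8% ± 1.02 against 53.8% ± 3.39 (SD, n = 3, exact two-sided permutation test, p = 0.1, and 0.182 after adjustment).

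At 48 h, 0 of the 10 genes had an adjusted p under 0.05 with edgeR, where 0.117% of all genes tested were called and all of these were lower. With DESeq2 the count was also 0. At an unadjusted p under 0.05, 3 genes were higher with Arg, *DSP*, *JUP*, and *PKP3*, against 5.94% of all genes. The log2 fold changes were 0.28 for *DSP* (SE 0.095, adjusted p = 0.237), 0.16 for *JUP* (SE 0.071, adjusted p = 0.366), and 0.14 for *PKP3* (SE 0.060, adjusted p = 0.346). *DSC3* had 0.35 (SE 0.16), *DSC2* 0.32 (SE 0.23), *PKP1* 0.31 (SE 0.16), *DSG3* 0.28 (SE 0.19), *DSG2* 0.11 (SE 0.070), *PKP2* 0.011 (SE 0.095), and *PERP* −0.0067 (SE 0.11). The median was 0.22, against 0.0018 over all genes tested. For *DSP* and *PKP3*, every Arg library was above every control library, as for 8.56% of all genes.

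Control replicate B at 48 h stood apart from replicates A and C in most of these genes. Its level was 2.12 times the mean of the others for *DSC2*, 1.78 times for *DSG3*, 1.69 times for *DSC3*, 1.67 times for *PKP1*, 1.33 times for *DSP*, 1.32 times for *PERP*, and between 1.02 and 1.18 times for *DSG2*, *JUP*, *PKP2*, and *PKP3*. In 6 of the 10 genes, control replicates A and C were below every Arg library while replicate B was not, a pattern that 14.3% of all genes tested also had in this direction. At 24 h, control replicate B was 1.5 times the mean of A and C for *DSG3*, 1.38 times for *PKP1*, and 1.35 times for *DSC2*. It was between 1.06 and 1.26 times that mean for *JUP*, *DSP*, *DSC3*, *DSG2*, *PERP*, and *PKP3*, and 0.99 times for *PKP2*. Without control replicate B at 48 h, 8 of the 10 genes had an adjusted p under 0.05 and were higher with Arg, where 15.9% of all genes tested were called in that fit. The log2 fold changes were then 0.78 for *DSC2* (adjusted p = 3.20e-06), 0.65 for *DSC3* (8.30e-08), 0.62 for *DSG3* (3.09e-05), 0.61 for *PKP1* (5.34e-07), and 0.44 for *DSP* (2.47e-06, edgeR). Those of *JUP*, *DSG2*, and *PKP3* were 0.24, 0.18, and 0.18, while *PERP* (0.14, adjusted p = 0.151) and *PKP2* (0.022, adjusted p = 0.902) were not called. With each of the other 5 libraries left out, 0 genes were called. Leaving out a library for the way it looks is not a test of Arg, and what sets it apart was not tested. Its share of mitochondrially encoded counts was above those of control replicates A and C, as were the shares of the Arg libraries at 48 h. The part of these shares was not tested either. With all libraries kept but no filter on low counts, 5 of the 10 genes were called at 48 h by edgeR (*DSG3*, *DSC2*, *DSC3*, *DSP*, and *PKP1*), where 2.1% of all genes were called in that fit, 199 higher and 374 lower.

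**Figure D3:**
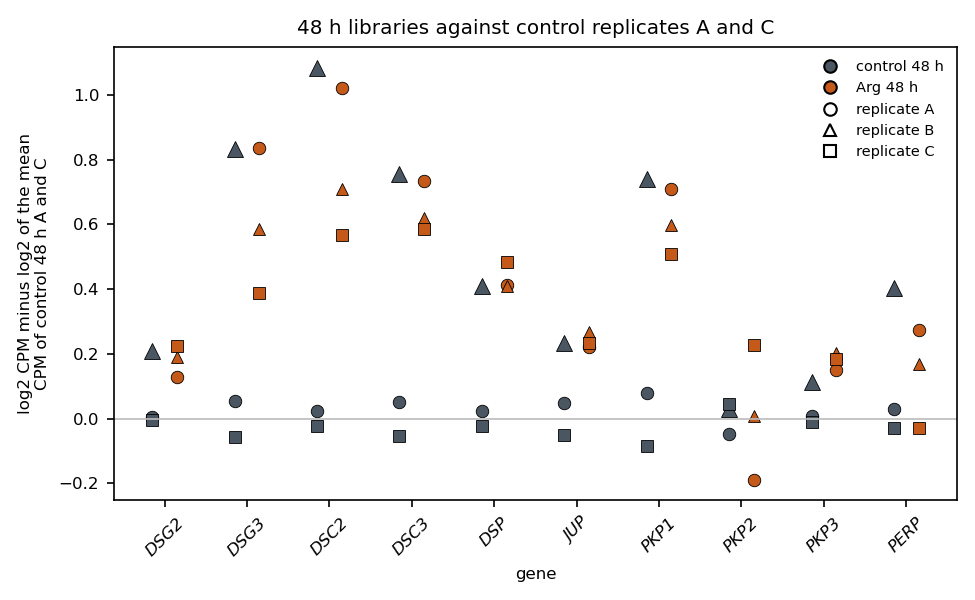
Log2 of the level of each gene (horizontal axis) in the 6 libraries at 48 h relative to the mean CPM of control replicates A and C (vertical axis), with control libraries in gray, Arg libraries in orange, and the replicate as the shape. The gray triangles, control replicate B, lie among or above the orange points except for *DSP* and *PKP3*, where they are at or just under the lowest of them.

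The differences between times and between media share libraries, so they are not separate observations. Whether the Arg effect differed between 24 and 48 h was tested by an interaction term fitted to the 12 libraries together. None of the 10 genes passed, either at an adjusted p (0.0132% of all genes tested called) or at an unadjusted p under 0.05 (6.87%). The interactions lay between −0.22 (*PKP1*, SE 0.23) and 0.18 (*DSC3*, SE 0.21) on the log2 scale, with a median of −0.012 against −0.0057 over all genes. Without control replicate B at 48 h, the largest were 0.50 for *DSC2* (SE 0.17, adjusted p = 0.312) and 0.48 for *DSC3* (SE 0.13, adjusted p = 0.176, edgeR).

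The other cadherins of the cluster on chromosome 18 were lower per length than the 4 above in every group mean. *DSG1* came nearest to *DSC2*, with means of 0.843 against 4.14 FPKM in the 24 h controls and 3.68 against 11.9 FPKM with Arg at 48 h. *DSG1*, the desmoglein of the upper epithelial layers, had 2346 counts over the 12 libraries, *DSC1*, the desmocollin of the upper epidermis, had 139, and *DSG4* had 0. A count of 0 in a library allows a level of up to between 0.156 and 0.179 CPM (3 counts, counting error only). *DSG1* had 4.71, 4.74, and 3.82 CPM in the 24 h controls and 6.35, 22.0, and 7.88 CPM in the 48 h controls. With Arg, *DSG1* had 6.58, 6.93, and 7.36 CPM at 24 h and 26.4, 17.98, and 13.5 CPM at 48 h. As in *DSC2* and *DSG3*, control replicate B at 48 h was at the level of the Arg libraries. *DSG1* rose with time, by 1.45 in control cells (SE 0.39, adjusted p = 0.0229, edgeR) and 1.48 in Arg-treated cells (SE 0.19, adjusted p = 1.22e-05), and the former was 0.68 without control replicate B at 48 h (adjusted p = 0.0402). The call in control cells was lost without control replicate A at 24 h (adjusted p = 0.0879), without replicate C at 24 h (0.103), and with DESeq2 (0.0539). For Arg against control, *DSG1* was not called at 24 h (0.65, SE 0.19, adjusted p = 0.053) or 48 h (0.68, SE 0.38, adjusted p = 0.46, edgeR). Its Arg libraries at 24 h were all above the controls, as for 12.9% of all genes tested. *DSC1* had between 0 and 5 counts per library in the 24 h controls, 8, 30, and 8 in the 48 h controls, between 4 and 8 with Arg at 24 h, and between 20 and 26 with Arg at 48 h. It rose with time in Arg-treated cells (log2 fold change 1.89, SE 0.51, adjusted p = 0.00831), and it did not pass the filter on low counts in the 2 pairwise comparisons that used the 24 h controls. In the fit of all 12 libraries, the difference in its change over time between the media was −0.48 (SE 0.98, adjusted p = 0.962, edgeR).

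**Figure D4:**
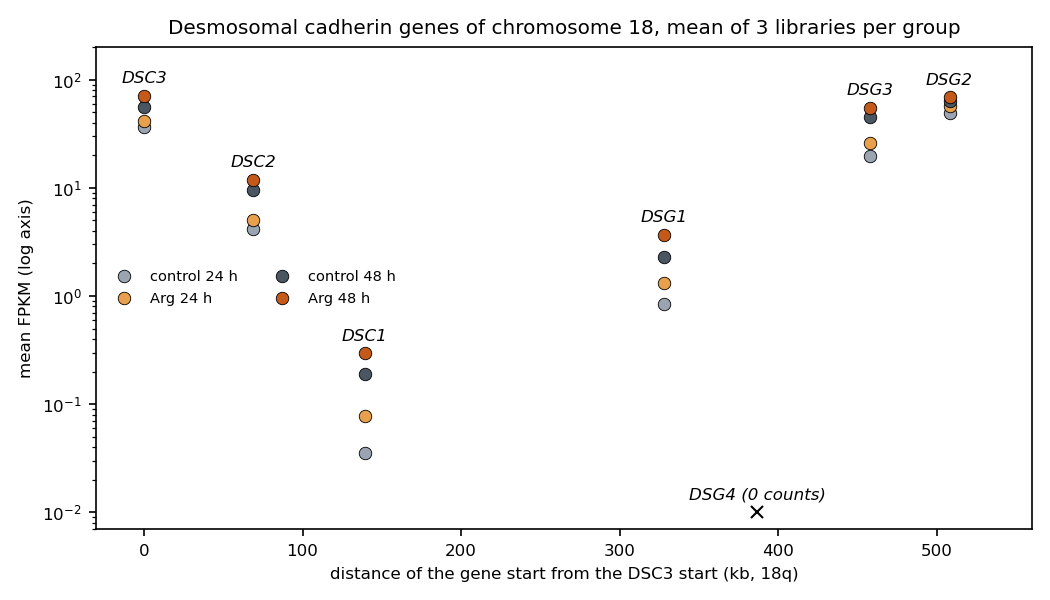
Mean FPKM of 3 libraries per group (vertical log axis) of the 7 cadherin genes of the cluster against the distance of each gene's start from the start of *DSC3* in kb (horizontal axis). *DSC3*, *DSG3*, and *DSG2* are at the top, *DSC1* is below 1 FPKM in every group, and the cross for *DSG4* at the bottom stands for 0 counts.

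Other proteins of desmosomes moved in part with the 10 genes. Of 9 listed genes, 6 were tested in control cells and 7 in Arg-treated cells, and 3 rose in the former while 4 rose and 1 fell in the latter. Beside this list and those below, 19.9% of all genes tested were called over time in control cells and 28.3% in Arg-treated cells. For Arg against control at 24 h, the share was 6.63%. *PPL* (periplakin) rose by 1.07 in control cells (adjusted p = 0.00159) and 0.86 in Arg-treated cells (adjusted p = 4.89e-06), and *EVPL* (envoplakin), its partner in the cornified envelope, by 0.58 and 0.51 (adjusted p = 0.00881 and 0.00555, edgeR). The call of *EVPL* in control cells was lost without control replicate A (adjusted p = 0.0575) or C (0.0508) at 24 h. *PKP4*, a relative of the plakophilins, fell by 0.25 in Arg-treated cells (adjusted p = 0.0235), a call lost without Arg replicate B or C at 24 h or Arg replicate A or C at 48 h (adjusted p-values between 0.0510 and 0.109). With Arg at 24 h, *PPL* (0.54, adjusted p = 0.0255) and *PNN* (0.32, adjusted p = 0.0484) were higher, and both lost the call without 4 or more of the 6 libraries in turn. *PNN* did not rise over time with most of the 10 genes (0.013 in control cells, adjusted p = 0.919, and −0.20 in Arg-treated cells, adjusted p = 0.0932, edgeR).

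Of the 10 listed genes of adherens junctions, the neighboring cadherin junctions, 5 rose in control cells and 8 in Arg-treated cells, with medians of 0.26 and 0.30. *NECTIN4*, a nectin, rose most, by 1.92 and 1.45 (adjusted p = 0.00204 and 1.33e-05, edgeR). *CDH1*, the classical cadherin of epithelia, rose by 0.28 and 0.26, and *VCL* (vinculin) by 0.43 and 0.35. In control cells, only the call of *NECTIN4* among these 5 was made with any single library left out. With Arg at either time, 0 of the 10 were called with edgeR. Of the 8 keratins, 2 rose and 2 fell in either medium. *KRT15*, a basal keratin, rose by 1.54 in control cells and 1.1 in Arg-treated cells, and *KRT16*, a keratin of activated keratinocytes, by 0.96 and 1.14, while *KRT17* fell by 0.69 and 0.38 and *KRT6B* fell by 0.63 and 0.55. The adjusted p-values of these 4 keratins lay between 5.22e-07 and 0.00784, and all 8 calls were made with any single library left out. Of the 6 hemidesmosome genes, which anchor the cells to the basement membrane, 1 rose and 2 fell in either medium. *DST* (dystonin) rose by 0.61 and 0.76, and *ITGA6*, the integrin subunit of these junctions, fell by 0.39 and 0.18. The latter call (adjusted p = 0.0365) was lost with any of 5 of the 6 libraries left out (adjusted p-values between 0.0503 and 0.106), Arg replicate C at 24 h being the exception. *ITGA6* also fell with Arg at 24 h, by 0.40 (adjusted p = 0.00840, edgeR), a call that was lost without control replicate C (−0.33, adjusted p = 0.0528) or Arg replicate C (−0.37, adjusted p = 0.0599).

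Of 16 listed regulators of desmosome genes or of their turnover, 9 rose and 1 fell between 24 and 48 h in each medium. Over all genes tested, 19.9% were called in control cells and 28.3% in Arg-treated cells. The transcription factor *GRHL3*, of the Grainyhead family, rose by 1.61 in control cells (adjusted p = 0.000974) and 1.11 in Arg-treated cells (adjusted p = 8.34e-06, edgeR), and its relative *GRHL2* by 0.45 and 0.31. *ZNF750*, a regulator of epidermal differentiation, rose by 2.85 (SE 0.63, adjusted p = 0.00995) and 1.93 (SE 0.25, adjusted p = 1.43e-05), and the former was 1.65 without control replicate B at 48 h. The level of *ZNF750* was low, between 0.52 and 1.19 CPM in the 24 h controls and between 1.85 and 2.96 CPM with Arg at 24 h. At 48 h it was between 2.47 and 13.3 CPM in the controls and between 5.82 and 10.4 CPM with Arg. *EGFR*, whose signaling acts on desmosome assembly, rose by 0.59 and 0.66. *SNAI2*, a repressor of epithelial genes, fell by 0.56 and 0.42. *GRHL2* and *ZNF750* lost the call in control cells without control replicate A or C at 24 h (adjusted p-values between 0.0576 and 0.0793). With Arg at 24 h, *GRHL2* (0.35, adjusted p = 0.0205) and *ZNF750* (1.38, adjusted p = 0.0469) were higher, and *SNAI2* (−0.49, adjusted p = 0.00471) and *KLF4*, a differentiation factor, (−0.45, adjusted p = 0.00774) were lower. Of these 4 calls, only that of *SNAI2* was made with any single library left out. At 48 h, 0 of the 16 were called with edgeR. The hemidesmosome genes and regulators, like the 10 genes, are described by these counts and not by a test of each list.

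**Figure D5:**
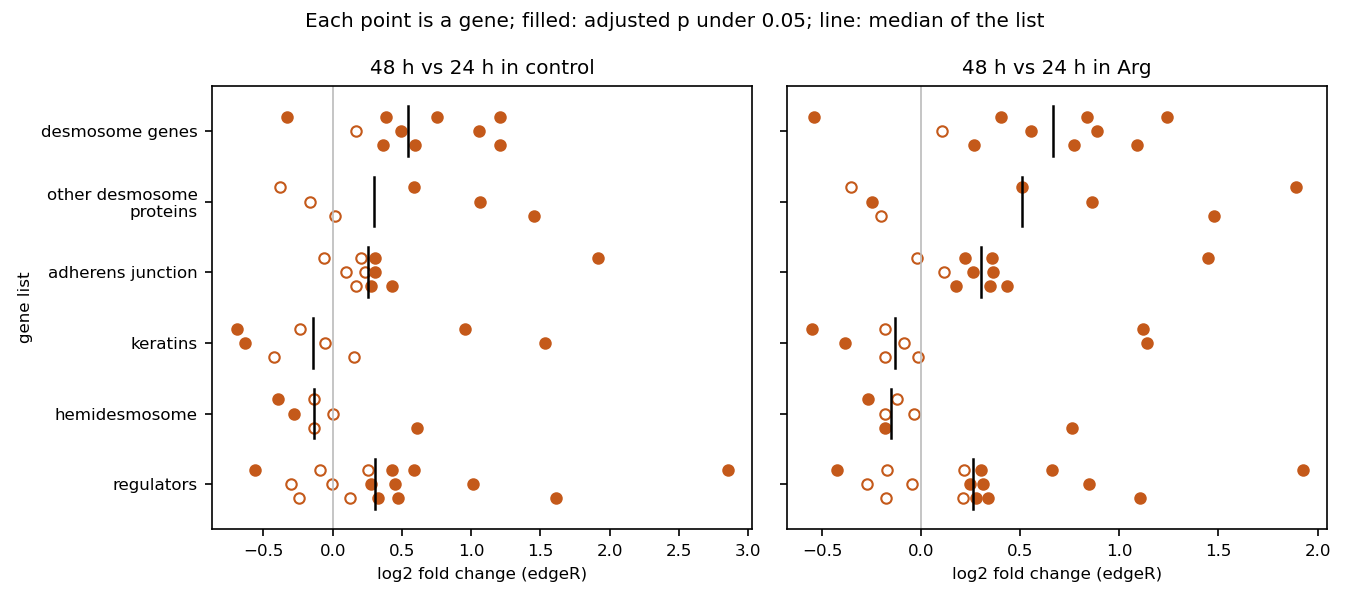
Log2 fold change for 48 h against 24 h (horizontal axis, edgeR) of each tested gene in 6 lists (vertical axis), in control cells (left) and Arg-treated cells (right), filled where the adjusted p was under 0.05, with the median of each list as a line. The medians of the desmosome genes, 0.55 and 0.66, are the highest of the 6 lists in each panel, and the keratins and hemidesmosome genes spread to both sides of 0.

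The 10 genes did not share a single profile over the 12 libraries. The Pearson correlation of log2 CPM with the mean of the other 9 genes was between 0.95 and 0.986 for *DSG2*, *DSG3*, *DSC2*, *DSC3*, *DSP*, *JUP*, and *PKP1*. It was 0.856 for *PERP*, 0.737 for *PKP3*, and −0.727 for *PKP2*. These correlations are descriptions over 12 libraries that share their groups and depth. In part they record the difference between 24 and 48 h, and in part differences within 48 h. At 48 h, the log2 CPM of the 10 genes, each relative to its own mean, averaged 0.040 and −0.016 in control replicates A and C. The average was 0.493 in control replicate B and between 0.349 and 0.441 with Arg. Among 15138 other genes, those whose profile was most like the mean of the 10 were *KRT13* (r = 0.996), *NOTCH3* (0.992), *PDXDC1* (0.992), *ARID5B* (0.989), and *ANK3* (0.988). *KRT13*, the keratin of the suprabasal layers of lining mucosa, had between 573.1 and 1040 CPM in the 24 h controls, between 805.2 and 1321 CPM with Arg at 24 h, between 1432 and 3458 CPM in the 48 h controls, and between 2814 and 3014 CPM with Arg at 48 h. *NOTCH3*, a Notch receptor, had between 7.36 and 15.9 CPM, between 11.2 and 19.1 CPM, between 27.6 and 92.9 CPM, and between 60.2 and 76.0 CPM in the same order of groups. In both genes the highest 48 h control was above every Arg library at 48 h. The mean of the 48 h controls, 2139 CPM for *KRT13* and 49.8 CPM for *NOTCH3*, was below the lowest of these Arg libraries.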

How the data were processed

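Poly(A) RNA of TIGK cells was sequenced by the authors, who cleaned the reads (fastp), aligned them to GRCh38/hg38 (STAR), and assigned them to genes (featureCounts). The values they deposited are raw counts, with gene positions and exonic lengths. The annotation release, strand setting, and versions of these tools are not given in the sources used here, so antisense genes cannot be told apart from their partners. All 12 columns of counts were used, and 0 columns of other samples were left out.

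The libraries were grouped by the treatment and time in their titles. The counts were tested with edgeR 4.0.16 (R 4.3.3), for each pair of groups, with TMM factors, edgeR's default filter, and the quasi-likelihood test. Adjusted p-values are Benjamini–Hochberg values over every tested gene. The interaction used all 12 libraries. FPKM was computed from the TMM-normalized counts and the exonic length. Shares of related genes, taken from counts divided by exonic length, were compared with exact permutation tests. Depth differs little between libraries, and 3 libraries per group limit the precision. The scripts were tested on simulated data.

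The 10 genes, the lists, and the tests were chosen with earlier results of these data known. The genes named are the 10 genes, at most 5 called genes of each list with the smallest p in each comparison, *DSG1*, *DSC1*, and *DSG4*, genes overlapping the 10, and the 5 genes most like their mean profile (log2 of CPM plus 0.5). The alternatives were DESeq2 1.42.0, its size factors, library size only, other filters (none, or at least 10 counts in every library), a single model, the replicate letter as a block, a correction for exonic length (a lowess trend with span 0.3 and prior count 2) with and without the block, and each library left out in turn. Lengths of canonical transcripts (GENCODE release 44) were added after seeing the data. In no comparison were the correlations of all 3 same-lettered pairs over 0.1 (they lay between −0.0913 and 0.188), so the letters were not taken to pair the libraries. In control cells over time they were all positive, at 0.0766, 0.188, and 0.0515 for A, B, and C. The highest correlations with another letter were 0.0228, −0.0564, and 0.136. A pairing of the control libraries is therefore not excluded.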

Additional observations from a re-analysis of the deposited data

How the results depend on the processing

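The calls in Arg-treated cells over time kept their count and direction under every alternative. With all libraries kept, the count at 24 h with Arg was 0 with DESeq2 and with all 12 libraries in 1 model, and 2 without a filter on low counts and with the replicate letter as a block, with or without the length correction. The 2 called with the block were *PKP1* and *DSG3* (adjusted p = 0.0487 for *DSG3*). At 48 h the count was 5 without a filter. With 1 library left out, the counts ranged from 0 to 4 at 24 h, from 0 to 8 at 48 h, and from 3 to 9 for control cells over time. *PKP3* in control cells over time passed the test under the block with the length correction (0.20, adjusted p = 0.0246) and under no other alternative. The block changed no other count of calls among the 10 genes by over 1.5 times. For all genes at 48 h with Arg it gave 43 higher and 141 lower calls, against 0 and 17. For all genes over time in control cells, the block gave calls in 28%, against 19.9%. With library size only, the calls over time in all genes were 1845 higher and 1008 lower in control cells, against 1431 and 1451, and 2568 and 1453 in Arg-treated cells, against 2060 and 2012.

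Values that changed sign were small or had large errors. *PERP* with Arg at 48 h was 0.00079 with the block, 0.0027 with the length correction, and 0.012 with both, and *PKP2* was −0.015 and −0.022 with the length correction without and with the block. With 1 library left out, *PERP* ranged from −0.11 to 0.022 at 24 h and from −0.089 to 0.14 at 48 h, and *PKP2* from −0.098 to 0.10 at 48 h. The interaction then ranged from −0.33 to 0.22 for *DSG3*, from −0.15 to 0.50 for *DSC2*, from −0.047 to 0.14 for *JUP*, from −0.38 to 0.070 for *PKP1*, and from −0.038 to 0.19 for *PERP*. Of the other log2 fold changes of the 10 genes, 733 kept their direction and their side of the threshold, 21 newly passed it, and 19 no longer did. Where the calls changed, the cause was not tested, except that leaving out a library leaves fewer libraries to the test. The canonical transcript length, chosen after seeing the data, moved the mean levels of *PERP* to 239.9, *JUP* to 237.9, *PKP2* to 19.5, and *PKP3* to 113.4 FPKM.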
